A study of Nicotiana tabacum with 6 samples.

Results

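The ascorbate-glutathione cycle and its peroxidases were followed across leaves of 3 tobacco genotypes through 10 tomato gene symbols: APX, APX1, APX2, DHAR1, DHAR2, MDHAR, GSH1, GSH2, GPXle-1 and GPXle-2. Members were all probe sets to which the tomato array's platform annotation of 2007 gives one of these symbols, which selected 13 of the 10101 tested probe sets and covered 10 of the 802 genes with a symbol. APX2, DHAR1 and GPXle-2 had 2 probe sets each and the other 7 genes had 1. The 3 genotypes were a psaA deletion mutant, a psbA deletion mutant and the wild type (called normal in the labels) of the tobacco cultivar spelled Petit Havanna in the labels, each measured on 2 Affymetrix tomato GeneChip arrays described as biological replicates. The plastid gene psaA encodes a reaction-centre protein of photosystem I, and psbA encodes the D1 protein of photosystem II. The labels give one growth text for all 3 genotypes: culture bottles with selection medium holding 500 mg/L spectinomycin, dim light on a day of 16 h with 8 h of darkness, and leaves taken 2 to 3 weeks after subculture. Whether the wild type was in fact kept on the drug is not settled by this text, and if it was not, drug and genotype cannot be told apart in any comparison with wild type. No age, line number or plant pooling is given, so the p-values below measure only the spread between these arrays, which may be technical.

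Hydrogen peroxide arises in leaves from the photosynthetic electron chain, among other sources, and the ascorbate-glutathione cycle is a main route of its removal in chloroplasts and cytosol. Ascorbate peroxidase (APX) reduces the peroxide with ascorbate. Monodehydroascorbate reductase (MDHAR) and dehydroascorbate reductase (DHAR) return the oxidised ascorbate to its reduced form, DHAR at the expense of glutathione. Glutathione is made by gamma-glutamylcysteine synthetase (GSH1) followed by glutathione synthetase (GSH2), and glutathione peroxidases (GPX) reduce lipid and other peroxides. Roles given here are those of the tomato gene of each symbol, and probe sequences were not used here.

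Values are the deposited log2 values, each centred by its depositors on the median of the 6 arrays. A value of 0 thus lies midway between the middle arrays of that probe set and says nothing of how abundant the transcript was. Levels of different genes cannot be compared on this scale, nor can the presence of leaf-defining transcripts be checked. Tobacco RNA met tomato probes, so signal also depends on how well each probe pairs with its tobacco counterpart. Differences were tested with limma over all 10101 probe sets, with Benjamini-Hochberg adjustment over all of them. A probe set is said to have risen or fallen at an adjusted p under 0.05, and the scaling makes this relative to the bulk of probe sets. Errors of differences are limma's standard errors (SE) with n = 2 arrays per group.

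Over the series, the SD over probe sets of the difference between both arrays of a genotype was 0.206 (psaA deletion), 0.229 (psbA deletion) and 0.208 (wild type), against 0.308 to 0.371 between genotypes. No probe set carried the symbol psaA or psbA, so the deletions were not checked. Calls over the whole array were 43.5% upward for the psaA mutant against wild type, 48.4% for the psbA mutant against wild type and 44.8% for psbA against psaA, and 7.95%, 1.27% and 6.76% with arrays scaled to the spiked poly-A transcripts. That scaling moved the median of all probe sets to -0.23, -0.47 and -0.22. It subtracts a constant from each array. A difference given below relative to the shifted median therefore restates the unscaled difference less its median, and is no separate result. Mesophyll markers moved with the mutants: of 4 with a probe set (CAB4, CAB5, CAB6A and PETE), 4 fell in the psaA mutant (median -0.89) and 3 in the psbA mutant (median -0.67). In such bulk samples fewer cells of a type and less RNA per cell cannot be told apart, and the part of this shift in the results below was not tested. Of 7 root markers 0 passed in the psaA mutant in limma (2 at an unadjusted p under 0.05), while Nramp2 rose (turning to -0.012 with poly-A scaling) and NRAMP3 fell in the psbA mutant. Of 2 meristem, 2 epidermis and 2 phloem markers 0 were called against wild type in limma, with 1 meristem marker in the psaA mutant and 1 epidermis marker in the psbA mutant at an unadjusted p under 0.05. As a measure of RNA integrity, 3' minus 5' control signals differed from wild type by 0.27 (actin), 0.28 (gapdh), 0.31 (ef1a), 0.30 (ubiquitin), -0.12 (GlutTrans) and -0.13 (PhyB2) in the psaA mutant, and by -0.13, -0.082, -0.089, 0.32, 0.021 and -0.031 in the psbA mutant. Their part in the results was not tested either.

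Against wild type, 2 of the 10 genes changed in the psaA mutant (APX2 higher, DHAR2 lower) and 3 in the psbA mutant (APX2 higher, DHAR2 and GPXle-1 lower). With poly-A scaling APX2 in the psbA mutant turned to -0.0096 and -0.033, without being called (adjusted p = 0.957 and 0.854). Relative to the shifted median of all probe sets these were 0.46 and 0.44. By probe sets, 2 of 13 rose and 1 fell in the psaA mutant, where 10.7% of all tested probe sets were called, 4.66% as higher and 6.06% as lower. For the psbA mutant, 2 of 13 rose and 2 fell, where 11.2% of all were called, 5.41% as higher and 5.76% as lower. All members carry a symbol. With only the 909 named probe sets tested, 15.3% were called in the psaA mutant and 13.2% in the psbA mutant, and 4 of the 13 in each. The 2 APX2 probe sets report one gene and are not independent. The 2 comparisons share their wild-type arrays.

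**Figure D1:**
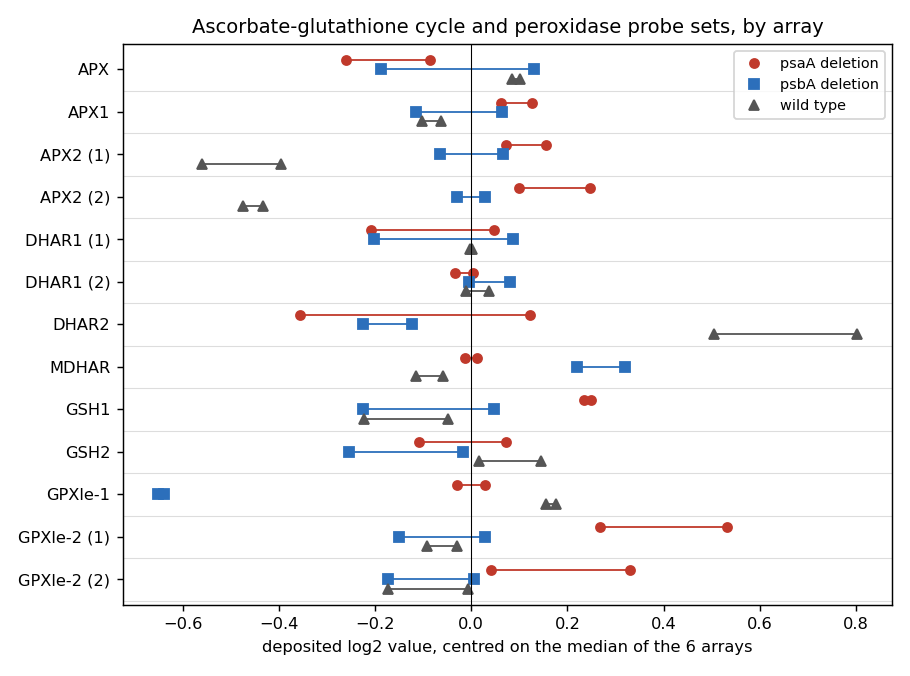
Deposited log2 value of each of the 13 probe sets on each array, with the arrays of a genotype joined by a line; (1) and (2) are the probe sets of one gene. Wild-type arrays of DHAR2 lie at 0.50 and 0.80, above all 4 mutant arrays, those of APX2 lie below all 4 mutant arrays at both probe sets, and the psbA deletion arrays of GPXle-1 lie apart at -0.64 and -0.65.

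Ascorbate peroxidase is represented by 3 genes. APX2 (gene ID 778224) had values of 0.073 and 0.16 on the psaA deletion arrays and 0.065 and -0.065 on the psbA deletion arrays, against -0.39 and -0.56 in wild type. Its other probe set gave 0.25 and 0.099 in the psaA mutant and 0.029 and -0.029 in the psbA mutant, against -0.47 and -0.43 in wild type. At both probe sets every mutant array stood above both wild-type arrays. In the psaA mutant APX2 rose 1.51-fold (log2 difference 0.59, SE 0.115, adjusted p = 0.0131), and the other probe set rose 1.54-fold (0.63, SE 0.108, adjusted p = 0.00776). In the psbA mutant APX2 rose 1.39-fold (0.48, SE 0.115, adjusted p = 0.0323) and 1.37-fold at the other probe set (0.45, SE 0.108, adjusted p = 0.0314), but with poly-A scaling these differences were -0.0096 and -0.033. They were also no longer called after quantile normalization (adjusted p = 0.0609 and 0.0662). The psaA rise kept its sign with poly-A scaling without passing (0.34 and 0.38, adjusted p = 0.15 and 0.107). Relative to the shifted median of all probe sets, APX2 stood at 0.57 and 0.61 in the psaA mutant and 0.46 and 0.44 in the psbA mutant. By construction these values restate the unscaled differences less the median of all probe sets.

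The calls of APX2 were close to the threshold. In the psaA mutant the first probe set was not called without psaA replicate 1, psaA replicate 2 or wild-type replicate 2 (adjusted p up to 0.0963), nor the other without psaA replicate 1 or wild-type replicate 1 (adjusted p up to 0.0674). For the psbA mutant the first was not called with any of the 6 arrays left out (adjusted p from 0.0594 to 0.174), and the other was not called without either psbA or either wild-type array (adjusted p up to 0.143). The size moved little, from 0.51 to 0.70 in the psaA mutant and from 0.39 to 0.56 in the psbA mutant over both probe sets.

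APX1 (gene ID 778223), whose probe set shares the cluster number of its ID with those of APX2, was not called. It had 0.13 and 0.062 in the psaA mutant and 0.063 and -0.11 in the psbA mutant, against -0.062 and -0.10 in wild type. The psaA arrays lay above the wild-type arrays, while the psbA arrays overlapped with them. The differences from wild type were 0.18 (95% confidence interval -0.078 to 0.43) in the psaA mutant and 0.057 (-0.20 to 0.31) in the psbA mutant. With poly-A scaling they turned to -0.070 (adjusted p = 0.771) and -0.43, the second passing as lower (adjusted p = 0.0252). Relative to the shifted median of all probe sets these were 0.16 and 0.039. Whether APX1 and APX2 transcripts share signal on these probes was not tested.

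APX (gene ID 543700), annotated without a number, leaned the other way without being called. Its values were -0.26 and -0.086 in the psaA mutant and -0.19 and 0.13 in the psbA mutant, against 0.086 and 0.10 in wild type. Both psaA arrays were below the wild-type arrays, and the psbA arrays spanned them. The differences were -0.27 (95% interval -0.57 to 0.040, adjusted p = 0.277) in the psaA mutant and -0.12 (-0.43 to 0.18, adjusted p = 0.647) in the psbA mutant. With poly-A scaling both passed as lower (-0.51, adjusted p = 0.0481, and -0.61, adjusted p = 0.00681), which is -0.28 and -0.14 relative to the shifted median of all probe sets.

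Among the enzymes that return ascorbate to its reduced form, DHAR2 fell in both mutants. DHAR2 (gene ID 778343) had 0.12 and -0.36 on the psaA arrays and -0.12 and -0.22 on the psbA arrays, against 0.50 and 0.80 in wild type. All 4 mutant arrays lay below both wild-type arrays, although the psaA arrays stood 0.48 apart. The fall was 1.71-fold in the psaA mutant (log2 difference -0.77, SE 0.173, adjusted p = 0.0249) and 1.77-fold in the psbA mutant (-0.83, SE 0.173, adjusted p = 0.018). Of all tested probe sets, 3.89% differed at least as much in the psaA mutant and 2.85% in the psbA mutant. The spread of DHAR2 within genotypes was larger than that of 90.9% of tested probe sets (residual SD 0.234).

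Of the 4 arrays that enter each DHAR2 comparison, leaving out 1 kept the call and leaving out any of the other 3 ended it. The psaA call ended without psaA replicate 2 (-0.53, adjusted p = 0.142), wild-type replicate 1 (-0.92, adjusted p = 0.0512) or wild-type replicate 2 (-0.62, adjusted p = 0.157), and with quantile normalization (-0.64, adjusted p = 0.0607). The psbA call ended without psbA replicate 1 (adjusted p = 0.073), psbA replicate 2 (adjusted p = 0.0969) or wild-type replicate 2 (adjusted p = 0.124). DHAR2 was below wild type in each of these fits.

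DHAR1 (gene ID 778229) was not called in either mutant. Its first probe set gave 0.048 and -0.21 in the psaA mutant and -0.20 and 0.088 in the psbA mutant, against -0.0018 and 0.0018 in wild type. Its other probe set stayed between -0.034 and 0.081 on all 6 arrays. Arrays of the genotypes overlapped at both probe sets. The differences from wild type ran from -0.081 to 0.026. The intervals at the less variable probe set were -0.26 to 0.21 in the psaA mutant and -0.21 to 0.26 in the psbA mutant, which leave out a fall of the size seen in DHAR2. With poly-A scaling, DHAR1 in the psbA mutant passed as lower at both probe sets (-0.54 and -0.46), close to the shift of the median of all probe sets.

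MDHAR (gene ID 778288) was highest in the psbA mutant without passing the test. It had 0.012 and -0.012 in the psaA mutant and 0.32 and 0.22 in the psbA mutant, against -0.12 and -0.058 in wild type. No genotype overlapped with another, in the order psbA mutant, psaA mutant, wild type, and the last 2 lay 0.087 apart in their means, within the error. The psbA difference from wild type was 0.36 (SE 0.105, 95% interval 0.12 to 0.60, adjusted p = 0.0667), and turned to -0.13 with poly-A scaling. The psaA difference was 0.087 (interval -0.15 to 0.33, adjusted p = 0.682), and turned to -0.16 with that scaling. Relative to the shifted median of all probe sets, MDHAR stood at 0.34 in the psbA mutant and 0.070 in the psaA mutant. These values again restate the unscaled differences.

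**Figure D2:**
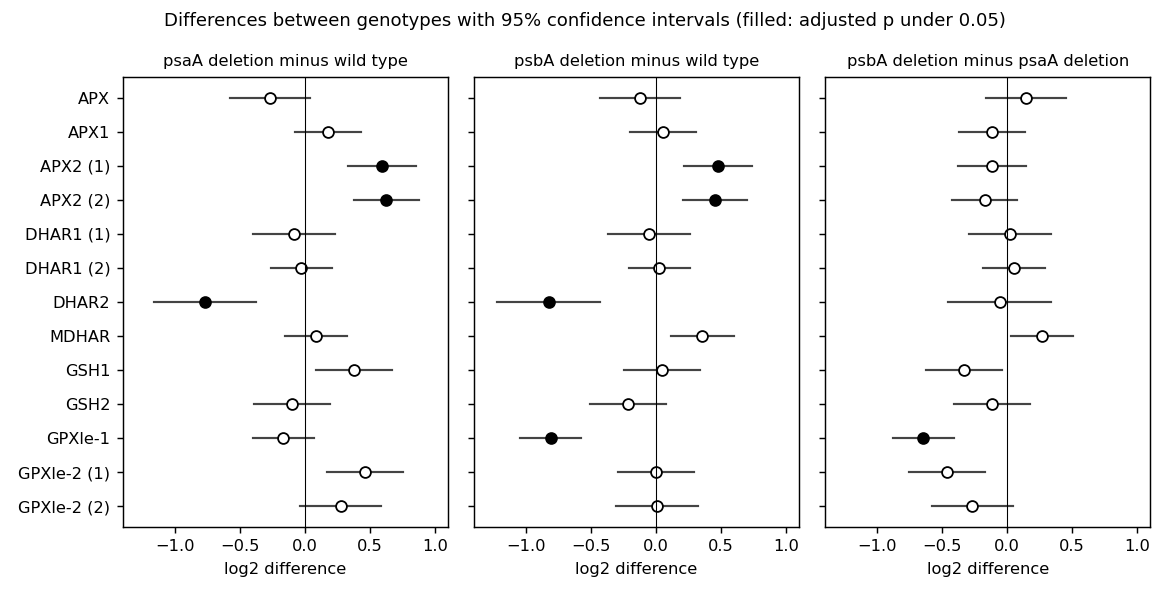
Log2 difference of each probe set in the 3 comparisons, with limma's 95% confidence interval from 2 arrays per group; filled circles have an adjusted p under 0.05. DHAR2 (-0.77 and -0.83) and APX2 (0.59 and 0.63, then 0.48 and 0.45) are called in both mutants against wild type, APX2 turning to -0.0096 and -0.033 in the psbA mutant with poly-A scaling, while GPXle-1 is called in the psbA mutant alone (-0.81) and between the mutants (-0.64).

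Of the genes of glutathione synthesis neither was called. GSH1 (gene ID 543536) had 0.25 and 0.23 in the psaA mutant and 0.048 and -0.23 in the psbA mutant, against -0.22 and -0.048 in wild type. The psaA arrays lay above all the others, and the psbA and wild-type arrays overlapped. The difference from wild type was 0.38 in the psaA mutant (SE 0.128, 95% interval 0.084 to 0.67, adjusted p = 0.111) and 0.047 in the psbA mutant (interval -0.25 to 0.34, adjusted p = 0.873). With poly-A scaling the psbA difference turned to -0.44 and passed as lower (adjusted p = 0.0209), at 0.030 relative to the shifted median of all probe sets.

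GSH2 (gene ID 543537) had 0.073 and -0.11 in the psaA mutant and -0.017 and -0.25 in the psbA mutant, against 0.017 and 0.15 in wild type. The psbA arrays lay below the wild-type arrays, and the psaA arrays overlapped with them. The differences were -0.099 in the psaA mutant (interval -0.39 to 0.19, adjusted p = 0.708) and -0.22 in the psbA mutant (interval -0.51 to 0.077, adjusted p = 0.352). With poly-A scaling the psbA difference passed (-0.70, adjusted p = 0.00163), at -0.23 relative to the shifted median of all probe sets.

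Of the glutathione peroxidase genes, GPXle-1 fell in the psbA mutant and GPXle-2 was not called. GPXle-1 (gene ID 544197) had 0.029 and -0.029 in the psaA mutant and -0.64 and -0.65 in the psbA mutant, against 0.16 and 0.18 in wild type. The genotypes did not overlap, and arrays of one genotype lay within 0.058 of each other. GPXle-1 fell 1.75-fold in the psbA mutant (log2 difference -0.81, SE 0.102, adjusted p = 0.00195), a size reached by 2.99% of all probe sets. In the psaA mutant the difference from wild type was -0.17 (SE 0.102, 95% interval -0.40 to 0.067, adjusted p = 0.38). The psbA fall was called with each of the 6 arrays left out (adjusted p from 0.00735 to 0.0202, log2 differences from -0.82 to -0.80) and in each other setting tried, poly-A scaling included (-1.30). Its residual SD of 0.0256 was among the lowest on the array, with 1.68% of probe sets lower.

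GPXle-2 (gene ID 544130) had its highest means in the psaA mutant without passing the test. Its first probe set had 0.53 and 0.27 in the psaA mutant and 0.029 and -0.15 in the psbA mutant, against -0.029 and -0.093 in wild type. The other probe set had 0.33 and 0.041 in the psaA mutant and 0.0061 and -0.17 in the psbA mutant, against -0.17 and -0.0061 in wild type. Both psaA arrays were above the wild-type arrays at both probe sets, the psbA arrays overlapped with wild type, and the psaA arrays themselves lay 0.26 and 0.29 apart. The psaA difference from wild type was 0.46 (SE 0.128, adjusted p = 0.057) at the first probe set and 0.27 (SE 0.137, adjusted p = 0.272) at the other, so neither passed over all tested probe sets. The first passed when only the 909 named probe sets were tested (adjusted p = 0.0455). With poly-A scaling the psaA differences were 0.21 and 0.028. In the psbA mutant the differences were 0.0010 (interval -0.29 to 0.29) and 0.0061 (interval -0.31 to 0.32), turning to -0.49 and -0.48 with poly-A scaling and to -0.025 and -0.020 with quantile normalization. The poly-A differences passed as lower (adjusted p = 0.0174 and 0.017), at -0.017 and -0.012 relative to the shifted median of all probe sets.

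The mutants were compared with each other to test the difference between their effects. Of the 13 probe sets 1 was called, GPXle-1, where 3.98% of all tested probe sets were called, 1.78% as higher and 2.2% as lower. With only the 909 named probe sets tested, 8.03% were called. Signal was 1.56-fold lower in psbA than in psaA mutant leaves (log2 difference -0.64, SE 0.102, adjusted p = 0.0118), and 2.48% of all probe sets differed as much. Without any 1 of the 4 mutant arrays it missed the threshold (adjusted p from 0.0617 to 0.0989) at nearly the same size (-0.67 to -0.62). Between the mutants, psbA minus psaA, the 3' minus 5' control signals differed by -0.40 (actin), -0.36 (gapdh), -0.40 (ef1a), 0.020 (ubiquitin), 0.14 (GlutTrans) and 0.097 (PhyB2). Of the 7 root markers 1 was called, PT1, which was lower in the psbA mutant (-0.61, adjusted p = 0.0493). In limma 0 of the 4 mesophyll markers were called (3 at an unadjusted p under 0.05, median 0.34), and the part of these differences in the result was not tested. Next in size were GPXle-2 at its first probe set (-0.46, 95% interval -0.75 to -0.17, adjusted p = 0.0952), GSH1 (-0.33, interval -0.62 to -0.037, adjusted p = 0.223) and MDHAR (0.27, interval 0.030 to 0.51, adjusted p = 0.222), each with arrays that did not overlap. With poly-A scaling GPXle-2 (-0.70) and GSH1 (-0.57) passed, at -0.48 and -0.35 relative to the shifted median of all probe sets, while MDHAR had 0.031 (adjusted p = 0.903).

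DHAR2 and APX2, called in both mutants against wild type, did not pass between the mutants. DHAR2 differed by -0.057 (interval -0.45 to 0.34), and APX2 by -0.11 (interval -0.38 to 0.15) and -0.17 (interval -0.42 to 0.075). APX (0.14), APX1 (-0.12), DHAR1 (0.024 and 0.053) and GSH2 (-0.12) had adjusted p of 0.644 or more, and the other GPXle-2 probe set (-0.27) one of 0.358.

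**Figure D3:**
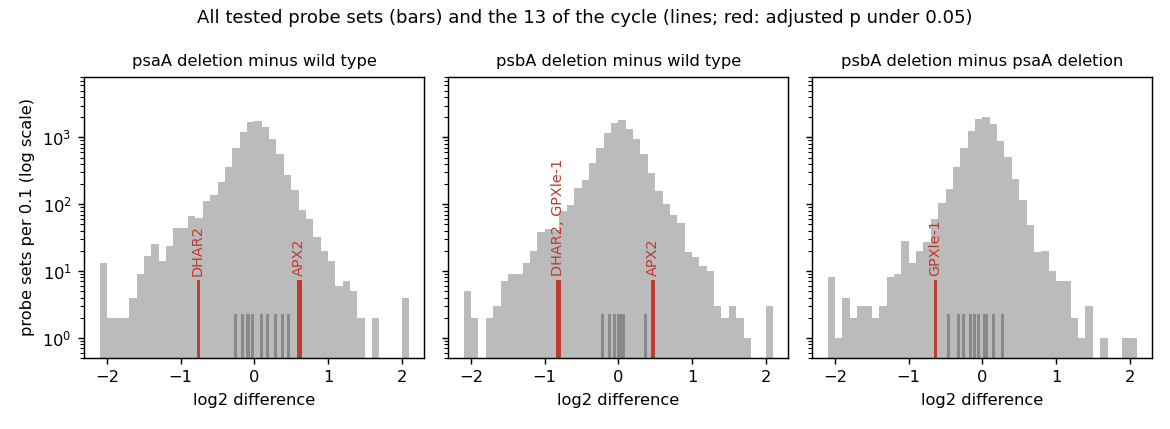
Number of tested probe sets per 0.1 of log2 difference (grey bars, log axis; the outermost bars hold all differences beyond 2 in size), with the 13 probe sets of the 10 genes as lines, red where called. DHAR2, GPXle-1 and APX2 stand in the flanks of the distributions where they are called, and APX2 turns to -0.0096 and -0.033 in the psbA mutant with poly-A scaling.

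As a set, the 13 probe sets had a median difference of 0.087 in the psaA mutant against wild type, beside 0.017 over all tested probe sets. For the psbA mutant the median was 0.0061, beside 0.018 over all, and between the mutants it was -0.12, beside 0.021 over all. The median size of difference was 0.27 against 0.15 over all probe sets for the psaA mutant, 0.12 against 0.16 for the psbA mutant and 0.14 against 0.14 between the mutants. Arrays of the psaA mutant and wild type did not overlap at 10 of 13 probe sets, beside 53.7% of all. For the psbA mutant and wild type this held at 6 of 13, beside 52.7% of all, and between the mutants at 7 of 13, beside 47.7% of all. At an unadjusted p under 0.05 stood 5, 5 and 4 of the 13, beside 23.8%, 24.5% and 17.8% of all probe sets. Probe sets of one gene share their target, so these are counts of related measurements.

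Pairs of genes of one enzyme or pathway were then set against each other within each array, which removes any scaling that shifts a whole array. DHAR2 minus DHAR1 (means of each gene's probe sets) was 0.12 and -0.25 in the psaA mutant and -0.063 and -0.27 in the psbA mutant, against 0.49 and 0.81 in wild type. APX2 minus APX1 was 0.033 and 0.065 in the psaA mutant and -0.016 and 0.067 in the psbA mutant, against -0.37 and -0.39 in wild type. In both pairs all 4 mutant arrays lay on one side of both wild-type arrays, and the mutants overlapped with each other. GPXle-1 minus GPXle-2 was -0.40 and -0.18 in the psaA mutant and -0.66 and -0.49 in the psbA mutant, against 0.26 and 0.23 in wild type. GSH2 minus GSH1 was -0.18 and -0.34 in the psaA mutant and -0.065 and -0.028 in the psbA mutant, against 0.24 and 0.19 in wild type. In these last pairs the 3 genotypes did not overlap, wild type being highest, with the psbA mutant lowest for the peroxidases and the psaA mutant lowest for glutathione synthesis.

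The changes in these within-array differences from wild type were -0.72 in the psaA mutant and -0.81 in the psbA mutant for the DHAR pair, and 0.43 and 0.41 for the APX pair, each mutant in the same order. For the peroxidase pair they were -0.53 and -0.81, and for glutathione synthesis -0.48 and -0.26. Over all 12 comparisons of a pair between genotypes, the exact two-sided permutation test over 2 against 2 arrays gave p = 0.333 wherever the groups did not overlap, the smallest value that this design allows (adjusted p = 0.4). In this test none can reach the threshold, and the values are given as descriptions. How often other gene pairs separate in this way was not computed. Arrays did not overlap at 53.7% of all single probe sets for the psaA mutant and wild type. This share was 52.7% for the psbA mutant and wild type, and 47.7% between the mutants.

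**Figure D4:**
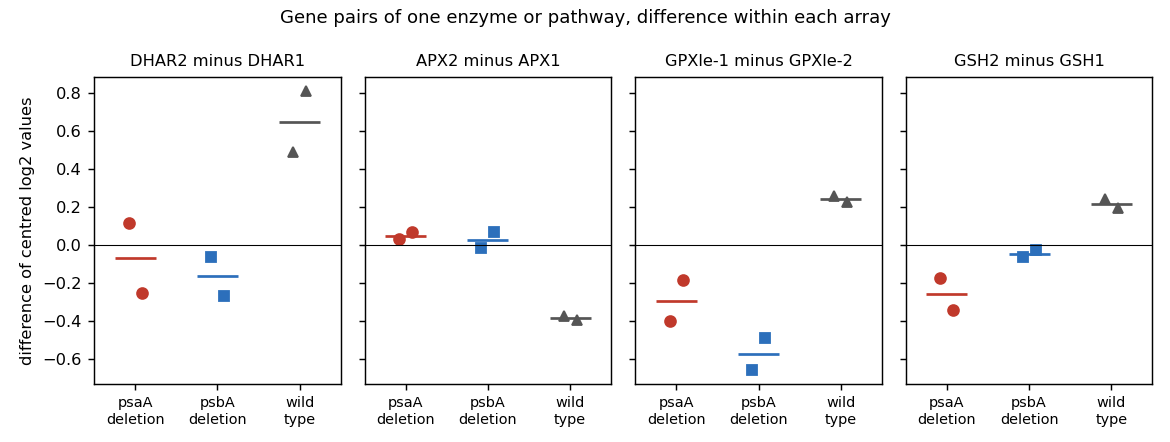
Difference between the centred log2 values of 2 genes on the same array, for 4 gene pairs; each point is an array and each bar the mean of a genotype's 2 arrays. The wild-type points stand apart from all mutant points in each panel, highest for DHAR2 minus DHAR1, GPXle-1 minus GPXle-2 and GSH2 minus GSH1, and lowest for APX2 minus APX1. How often other gene pairs separate in this way was not computed.

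The genes with a symbol whose centred values came closest to those of the called members were found by the root mean square difference over the 6 arrays, among 792 other symbols. Closest to APX2 were SAHH, an S-adenosylhomocysteine hydrolase gene, at 0.0872, and FRK2, a fructokinase gene, at 0.0878. DHAR2 was followed most closely by Fad7, a plastid fatty acid desaturase gene, at 0.129, and by PETE, the plastocyanin gene and one of the mesophyll markers above, at 0.157. For GPXle-1 these were LOC778302 at 0.101 and the arginine decarboxylase gene adc1 at 0.123. These genes were chosen for closeness over the same 6 arrays, so their differences resemble those of the member by construction. In the psaA and psbA mutants, in that order, SAHH differed from wild type by 0.76 and 0.58 and FRK2 by 0.39 and 0.37. Fad7 differed by -0.68 in both and PETE by -0.82 and -0.71. LOC778302 differed by -0.082 and -0.70, and adc1 by 0.077 and -0.60.

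Other genes of peroxide metabolism were taken from a list of symbols of antioxidant and oxidase genes, of which 21 matched on the array. The listed symbols of glutathione reductase, thioredoxin and peroxiredoxin, phospholipid hydroperoxide glutathione peroxidase and ferritin had no match. Glutathione reductase was therefore not followed here. Of these 21, 4 rose and 1 fell in the psaA mutant, 1 fell and 0 rose in the psbA mutant, and between the mutants 1 was higher and 2 were lower in the psbA mutant. Over all tested probe sets 10.7%, 11.2% and 3.98% were called in these comparisons, and 15.3%, 13.2% and 8.03% when only the 909 named probe sets were tested. In limma 8, 2 and 7 of the 21 had an unadjusted p under 0.05, beside 23.8%, 24.5% and 17.8% of all probe sets. Without 5 symbols that matched by their first letters alone and whose products may lie outside the list (CEVI57, cevi19, MTA, MTSHP and MTS1), 16 genes were left with the same counts of calls. The fall in both mutants was that of CAT2, a catalase gene (-2.14 in the psaA mutant and -1.04 in the psbA mutant). The other catalase gene, cat1, was not called, with 0.47 in the psaA mutant (adjusted p = 0.0516) and 0.060 in the psbA mutant (adjusted p = 0.827).

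In the psaA mutant the genes that rose were SODCC.1, a copper-zinc superoxide dismutase gene (0.58, SE 0.106, adjusted p = 0.00999), AOX1a, the mitochondrial alternative oxidase (0.47, adjusted p = 0.028), the peroxidase gene TPx1 (0.48, adjusted p = 0.0457) and Wfi1, an NADPH oxidase gene (0.90, adjusted p = 0.00897). With poly-A scaling all 4 kept their sign, and SODCC.1 (0.33, adjusted p = 0.155), AOX1a (0.22, adjusted p = 0.35) and TPx1 (0.23, adjusted p = 0.337) were not called. TPx1 was also not called after quantile normalization (adjusted p = 0.0729). The psbA mutant showed for these 4 differences of 0.14, -0.037, 0.46 and -0.32 from wild type, of which TPx1 had an adjusted p of 0.0511. Between the mutants AOX1a (-0.51) and Wfi1 (-1.22) were lower and CAT2 (1.11) was higher in the psbA mutant. The difference in SODCC.1 (-0.44, adjusted p = 0.0624) did not pass, nor did that in TPx1 (-0.018, adjusted p = 0.961). RBOH1, the other NADPH oxidase gene, was not called in any comparison. It had 0.35 in the psaA mutant (adjusted p = 0.13), -0.10 in the psbA mutant (adjusted p = 0.682) and -0.45 between the mutants (adjusted p = 0.0942).

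Ascorbate synthesis was represented by GMP, GDP-mannose pyrophosphorylase (-0.43 in the psaA mutant, adjusted p = 0.148, and -0.050 in the psbA mutant), and GLDH, galactonolactone dehydrogenase (0.024 and -0.052 in the same order). SODCP.2, a plastid superoxide dismutase gene, had -0.42 and -0.50 with adjusted p of 0.343 and 0.243, at an SE of 0.238. The metallothionein genes MT2, MT3 and MT4, the peroxidase genes TPX2 and CEVI-1 and the glutathione transferase gene GST-T4 were not called in any comparison at the probe set used. One further MT4 probe set was higher in the psbA mutant than in wild type (0.44, adjusted p = 0.0325), turning to -0.051 with poly-A scaling.

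**Figure D5:**
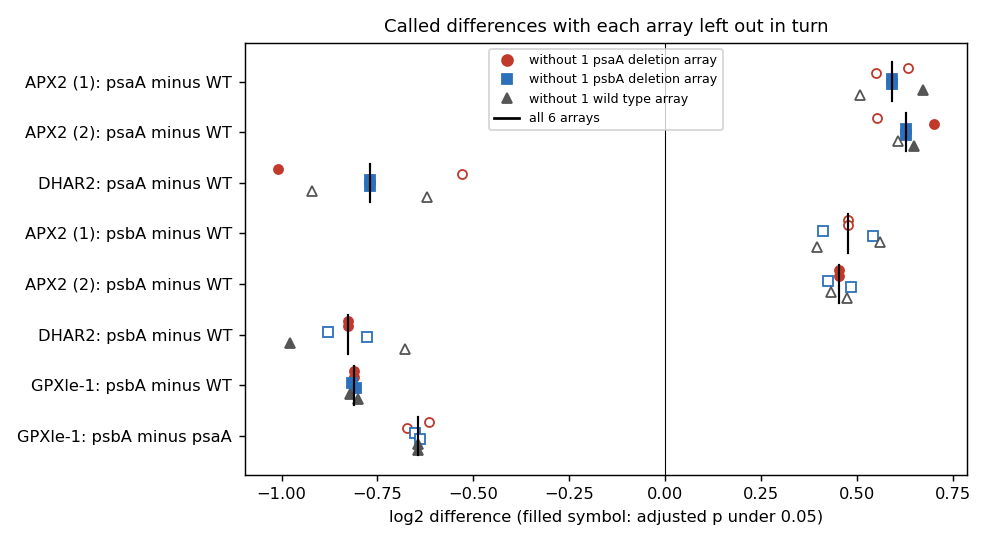
Log2 difference of each called member (psaA and psbA stand for the deletion mutants, WT for wild type) with all 6 arrays (black line) and with each array left out in turn (symbols, filled at an adjusted p under 0.05). GPXle-1 in the psbA mutant against wild type stays between -0.82 and -0.80 and called throughout, DHAR2 in the psaA mutant spreads from -1.01 to -0.53, and APX2, which turns to -0.0096 and -0.033 in the psbA mutant with poly-A scaling, keeps its size near the threshold.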

How the data were processed

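Leaf RNA of 3 tobacco genotypes was hybridised to 6 tomato GeneChip arrays, with biotin-labelled cRNA made from 5.0 ug of total RNA per the labels' protocols. RMA and GCRMA are named in the submitters' processing notes, without versions and without saying which gave the values. The deposited values were taken as log2, the base both methods give; the base is not stated, so folds rest on it. The 6-array median was 0 (to 5e-07) at all 10209 probe sets, so values had been centred per probe set before deposit. Column medians ran from -0.0072 to 0.011, and background level, scale of the raw signal and any filter on dim probe sets are not given in the sources used here. The 108 AFFX control probe sets were left out, and 10101 were tested.

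Groups came from the sample titles. One linear model over all 6 arrays (limma 3.58.1, lmFit and eBayes, R 4.3.3) gave 3 contrasts, with 3 residual and 5.39 prior degrees of freedom. The few arrays limit precision (median SE 0.125). The code was tested on simulated data. Symbols came from the platform annotation of 2007, which names 909 tested probe sets (802 symbols); 0 of the 10 member IDs matched the RefSeq table of tobacco genes. Every probe set of a member is reported; for counts per gene the plain one was used, then ID order. Genes alike in pattern were the 2 with the smallest root mean square difference per called member. Members and lists were chosen with earlier results of these data known. Alternatives were other scalings, fits, feature sets and leaving out each array.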

Additional observations from a re-analysis of the deposited data

Results flagged for a closer look

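GPXle-1 was marked because its difference from wild type was not the same in the mutants. The mark was set on the contrast psbA minus psaA itself, so the test given here is no separate support for it. GPXle-1 had -0.64 and -0.65 on the psbA deletion arrays and 0.029 and -0.029 on the psaA deletion arrays. The contrast gave a log2 difference of -0.64 (SE 0.102, adjusted p = 0.0118 in limma). The value kept its sign in each setting tried and missed the threshold with any 1 of the 4 mutant arrays left out.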

How the results depend on the processing

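With 2 arrays per group most calls are near the limit of what the design can detect, and signal over background cannot be read from centred values, so no filter on dim probe sets was tried. With 1 array left out, the group that loses it has a single array, assumed to vary like the others.

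Across the whole array, leaving out 1 array gave 494 to 994 calls for psaA minus wild type (1083 with all arrays), 509 to 842 for psbA minus wild type (1128) and 115 to 266 for psbA minus psaA (402). Among the 13 probe sets it gave 1 to 3 (3 with all arrays), 1 to 3 (4) and 0 to 1 (1); where limma called 0, from 1 to 3 had an unadjusted p under 0.05. Poly-A scaling, on 36 control probe sets, gave 6615 calls and 10 members for psbA minus wild type, and 902 and 3 for psbA minus psaA. Quantile normalization left 2 members called for psbA minus wild type. Fitting only the 2 mutants gave 266 calls between them, and testing only the 909 named probe sets gave 139, 120 and 73 calls (15.3%, 13.2% and 8.03%). Averaging the probe sets of a gene changed no count of genes called.

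Poly-A scaling turned the sign, for psaA minus wild type, of APX1 (-0.070) and MDHAR (-0.16). For psbA minus wild type it turned APX1 (-0.43), APX2 (-0.0096 and -0.033), DHAR1 at its other probe set (-0.46), MDHAR (-0.13), GSH1 (-0.44) and GPXle-2 (-0.49 and -0.48), and for psbA minus psaA it turned APX (-0.095) and DHAR1 (-0.22 and -0.19). By construction this scaling moves all differences of a comparison by the same amount. The direction and size of that shift come from the spiked controls, and what lies behind them was not tested. Quantile normalization turned GPXle-2 for psbA minus wild type (-0.025 and -0.020). Leaving out 1 array turned uncalled differences near 0. For psaA minus wild type, DHAR1 ran from -0.21 to 0.048. For psbA minus wild type the ranges were -0.28 to 0.036 (APX), -0.032 to 0.15 (APX1), -0.20 to 0.088 and -0.016 to 0.069 (DHAR1), -0.090 to 0.18 (GSH1), and -0.089 to 0.091 and -0.084 to 0.096 (GPXle-2). For psbA minus psaA they were -0.30 to 0.18 (DHAR2), -0.014 to 0.30 (APX), -0.12 to 0.17 (DHAR1) and -0.24 to 0.0015 (GSH2). No called difference turned with an array left out.

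The labels do not say whether the replicate numbers pair the samples. Deviations of same-numbered arrays correlated at 0.021, -0.0049 and -0.0086 between groups, which shows no strong shared effect of the replicate number. With the number as a replicate block, 916, 965 and 301 probe sets and 4, 4 and 1 of the 13 were called; the added call was GPXle-2 at its first probe set in the psaA mutant (0.46, adjusted p = 0.049), which also passed among the named probe sets alone (adjusted p = 0.0455).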

Other observations

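Probe sets of one gene gave like differences for APX2 and DHAR1. Against wild type the 2 APX2 probe sets were 0.036 apart in the psaA mutant and 0.023 apart in the psbA mutant, and those of DHAR1 were 0.054 and 0.083 apart. The GPXle-2 probe sets were 0.19 apart in the psaA mutant and 0.0051 apart in the psbA mutant.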
